A study of Mus musculus with 16 samples.

Results

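Genes known to respond to low oxygen but outside glycolysis were described here: Bnip3, Ndufa4l2, Egln3, Ankrd37, Adm and Vegfa. They are 6 of the 23284 genes of the deposited table, taken by name, and all 6 passed the filter on low values that left 13895 genes for testing. They were selected on what is known of them and on a difference in FPKM, already seen for some of them, between iPSC libraries titled with the numbers 10 and 1. That difference is given as a description, with no test.

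Transcripts were measured by RNA sequencing in 16 libraries of mouse cells of the genotype ColA1_miR203; Rosa26rtTA, in which the microRNA miR-203 is expressed from an inducible construct when doxycycline (DOX) is given. All libraries carried this genotype and the same listed DOX treatment of 5 to 7 days. Of them, 12 were of induced pluripotent stem cells (iPSCs), made from embryonic fibroblasts and grown on feeder cells in medium with 20% serum replacement, and 4 were of embryoid bodies (EBs), aggregates of differentiating cells formed in hanging drops. The study followed the effect of transient miR-203 expression over time. A title is made of a prefix, KIX or KI, then D or V, then 1, 4, 10 or EB, and the labels explain none of these codes. The 8 groups were KIX and KI at number 1, KIX and KI at number 4, KIX and KI at number 10, and KIX and KI EBs, each with a D and a V library. No treatment or day was assigned to a code. Nothing in the labels says that D and V came from separate cultures. The p-values therefore rest on a spread between libraries that may be technical.

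Cells sense oxygen through the prolyl hydroxylases of the Egln family, which mark the alpha subunits of the hypoxia-inducible factors (HIFs) for destruction by the von Hippel-Lindau (VHL) complex. When oxygen is low the alpha subunits persist, pair with Arnt and bind short hypoxia response elements near their target genes. Bnip3 codes for an outer mitochondrial membrane protein that marks mitochondria for autophagy, and Ndufa4l2 for a mitochondrial relative of a respiratory chain subunit that lowers respiration in low oxygen. Egln3 is itself a HIF target and so part of a feedback loop. Ankrd37, a small ankyrin repeat protein, is a HIF target, Adm codes for the secreted vasodilator peptide adrenomedullin, and Vegfa for the main growth factor of blood vessels. In the GENCODE annotation of GRCm38, these protein-coding genes span chr7:138890836-138909519 (Bnip3, minus strand), chr10:127514967-127517154 (Ndufa4l2, plus), chr12:54178981-54203860 (Egln3, minus), chr8:45996902-46005707 (Ankrd37, minus), chr7:110627661-110629820 (Adm, plus) and chr17:46016993-46032369 (Vegfa, minus).

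The promoters of 4 members are shown because the core of the hypoxia response element can be looked for in them. RefSeq promoter entries (GRCm38.p6) were at hand for 5 of the 6 genes. The core was searched as ACGTG and GCGTG, on both strands, in the 250 bases before each annotated start, and capitals mark the matches, which may overlap each other or another motif. The stretches lie at chr7:138909507-138909756 (minus strand) for Bnip3, chr8:45999851-46000100 (minus strand) for Ankrd37, chr12:54203875-54204124 (minus strand) for Egln3 and chr7:110627407-110627656 (plus strand) for Adm.
Bnip3: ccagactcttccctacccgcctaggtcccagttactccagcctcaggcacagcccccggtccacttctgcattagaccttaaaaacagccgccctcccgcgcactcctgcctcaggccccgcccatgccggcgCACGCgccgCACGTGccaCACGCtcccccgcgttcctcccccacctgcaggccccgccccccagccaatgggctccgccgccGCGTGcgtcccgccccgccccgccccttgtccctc
Ankrd37: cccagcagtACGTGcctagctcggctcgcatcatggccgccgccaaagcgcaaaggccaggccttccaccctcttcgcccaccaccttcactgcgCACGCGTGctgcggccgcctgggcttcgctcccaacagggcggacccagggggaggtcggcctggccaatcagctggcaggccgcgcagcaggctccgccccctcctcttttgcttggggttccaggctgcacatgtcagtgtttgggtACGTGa
Egln3: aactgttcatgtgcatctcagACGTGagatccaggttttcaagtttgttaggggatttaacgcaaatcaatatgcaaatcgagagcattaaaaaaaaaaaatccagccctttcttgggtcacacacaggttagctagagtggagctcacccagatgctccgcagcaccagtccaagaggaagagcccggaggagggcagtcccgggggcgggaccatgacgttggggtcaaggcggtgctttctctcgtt
Adm: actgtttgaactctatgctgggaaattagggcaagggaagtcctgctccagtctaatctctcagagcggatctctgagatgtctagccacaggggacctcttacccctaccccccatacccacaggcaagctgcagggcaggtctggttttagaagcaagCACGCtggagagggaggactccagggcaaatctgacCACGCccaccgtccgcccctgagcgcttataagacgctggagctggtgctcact

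Bnip3 had 5 matches, with an ACGTG read on both strands within 1 palindromic stretch. Ankrd37 had 4 matches, 1 of them next to the start. Its stretch lies within the Ankrd37 span given above, so this start is internal to that span. Adm had 2 matches and Egln3 had 1. The stretch before the first Vegfa start had 0, and that before an internal Vegfa start (chr17:46025164-46025413, minus strand) had 2. Of 32851 promoter entries of the same length, 16.6% held ACGTG, 28.2% held GCGTG and 38.6% held either. A share of 1.01% held at least as many matches as Bnip3 and 2.58% at least as many as Ankrd37, against 16.7% for Adm and 38.6% for Egln3. A match is a description of the letters and not a binding site.

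**Figure D1:**
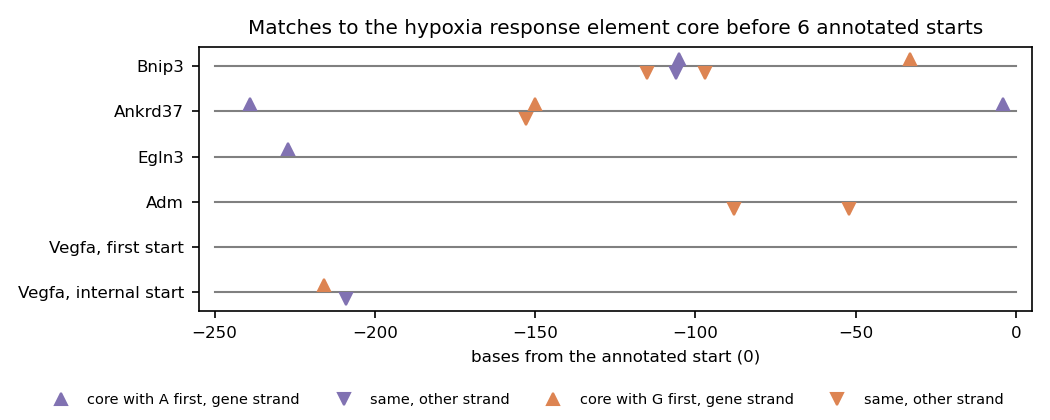
Positions of matches to the hypoxia response element core before 6 annotated starts of 5 genes, in bases from the start at 0. Upward triangles are matches on the strand of the gene and downward ones on the other strand; Bnip3 carries 5, Ankrd37 carries 4 and the first Vegfa start carries 0.

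The mature microRNA of the construct is shown so that its site could be looked for in the 6 genes, with its seed, bases 2 to 8, in capitals (RefSeq, GRCm38.p6, chr12:112130927-112130948, plus strand).
miR-203-3p: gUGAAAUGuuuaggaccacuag

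The matching site CATTTCA was in the longest annotated 3′ untranslated region of 0 of the 6 genes, regions of 226 to 1868 bases. It was in 16.1% of 21005 genes searched in the same way. These 7 letters are the only form of site that was searched.

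The gene Mir203 was at 1868 and 1969 FPKM in the D and V libraries of KIX at number 1 and at 2254 and 1728 FPKM in those of KIX at number 4. It was listed at 0 in KI at numbers 1 and 4 and in all 4 libraries of number 10. In EBs it was at 212.4 FPKM in the D library of KIX and 90.1 FPKM in the V library of KI, and listed at 0 in the other two. FPKM divides fragments by transcript length and by library size, so it is large for so short a gene from few fragments. The FPKM of a library summed to between 612598 and 724350, the highest being the D library of KI at number 4, and 12117 to 12501 genes reached 1 FPKM; the depth in reads is unknown. Pou5f1, the pluripotency factor Oct4, was at 203.2 to 412.7 FPKM in EBs and 868.7 to 1113 FPKM in iPSCs, while the endoderm product Afp was at 619.8 to 1519 FPKM in EBs and at most 0.426 FPKM in iPSCs. A sum over 10 fibroblast markers, the type of the feeders, was 24.1 to 488.8 FPKM in EBs and 1143 to 2566 FPKM in iPSCs, with no marker at 0 in either set. In such mixed samples, fewer cells of a type and less RNA per cell cannot be told apart.

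The mitochondrial pair had low levels at number 10 and, in KIX, already at number 4. Bnip3 in the D and V libraries of KIX was at 86.4 and 70.5 FPKM at number 1, at 11.2 and 14.0 at number 4, at 14.0 and 9.52 at number 10, and at 190.8 and 298.4 in EBs. KI libraries D and V held 58.1 and 53.5 FPKM at number 1, 79.9 and 38.0 at number 4, 8.89 and 6.16 at number 10, and 227.5 and 250.8 in EBs. The EB libraries were the highest, without overlap, and the KIX libraries of number 4 lay among or next to those of number 10, while the KI libraries of number 4 lay on either side of those of KI at number 1. Ndufa4l2 in the D and V libraries of KIX was at 25.8 and 21.3 FPKM at number 1, at 1.74 and 1.07 at number 4, at 2.07 and 1.61 at number 10, and at 9.48 and 12.6 in EBs. In KI it was at 12.6 in both libraries of number 1, at 18.8 and 6.82 at number 4, at 1.72 and 1.52 at number 10, and at 11.2 and 12.2 in EBs. Unlike Bnip3, it had its highest values in iPSCs, the KIX libraries of number 1, and its EB levels were within the iPSC range.

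Egln3, the oxygen sensor of the 6, had nearly the order of groups of Bnip3, at lower levels. KIX libraries D and V held 19.2 and 16.2 FPKM at number 1, 3.44 and 4.46 at number 4, 3.80 and 3.14 at number 10, and 40.3 and 50.6 in EBs. In KI it was at 14.5 and 15.0 FPKM at number 1, at 23.6 and 11.9 at number 4, at 2.54 and 2.50 at number 10, and at 36.0 and 40.7 in EBs. The groups of KIX at numbers 4 and 10 overlapped, and those of KI at 10 lay below both. Ankrd37 in the D and V libraries of KIX was at 25.6 and 19.9 FPKM at number 1, at 6.81 and 7.81 at number 4, at 4.49 and 2.99 at number 10, and at 18.8 and 24.7 in EBs. In KI it was at 14.1 and 15.6 FPKM at number 1, at 34.3 and 14.5 at number 4, at 4.22 and 2.06 at number 10, and at 22.1 and 20.7 in EBs. Its highest library was D of KI at number 4, and the groups of KI at 4, KIX at 1 and both EBs overlapped with their neighbours in the order of the means.

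The secreted factors departed from this pattern. Adm in the D and V libraries of KIX was at 15.0 and 13.2 FPKM at number 1, at 4.06 and 3.72 at number 4, at 4.06 and 4.67 at number 10, and at 4.63 and 10.4 in EBs. In KI it was at 21.2 and 19.6 FPKM at number 1, at 10.1 and 6.06 at number 4, at 8.94 and 12.4 at number 10, and at 7.95 and 8.98 in EBs. Adm was thus highest at number 1 in both prefixes, and KIX libraries were below KI libraries at each of the 3 numbers. Vegfa in the D and V libraries of KIX was at 14.0 and 12.5 FPKM at number 1, at 11.1 and 10.6 at number 4, at 5.75 and 5.71 at number 10, and at 53.1 and 73.9 in EBs. In KI it was at 12.2 and 11.8 FPKM at number 1, at 12.1 and 9.56 at number 4, at 7.05 and 6.72 at number 10, and at 55.2 and 54.8 in EBs. Vegfa varied least between the iPSC groups, and its 4 libraries of number 10 were the lowest.

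**Figure D2:**
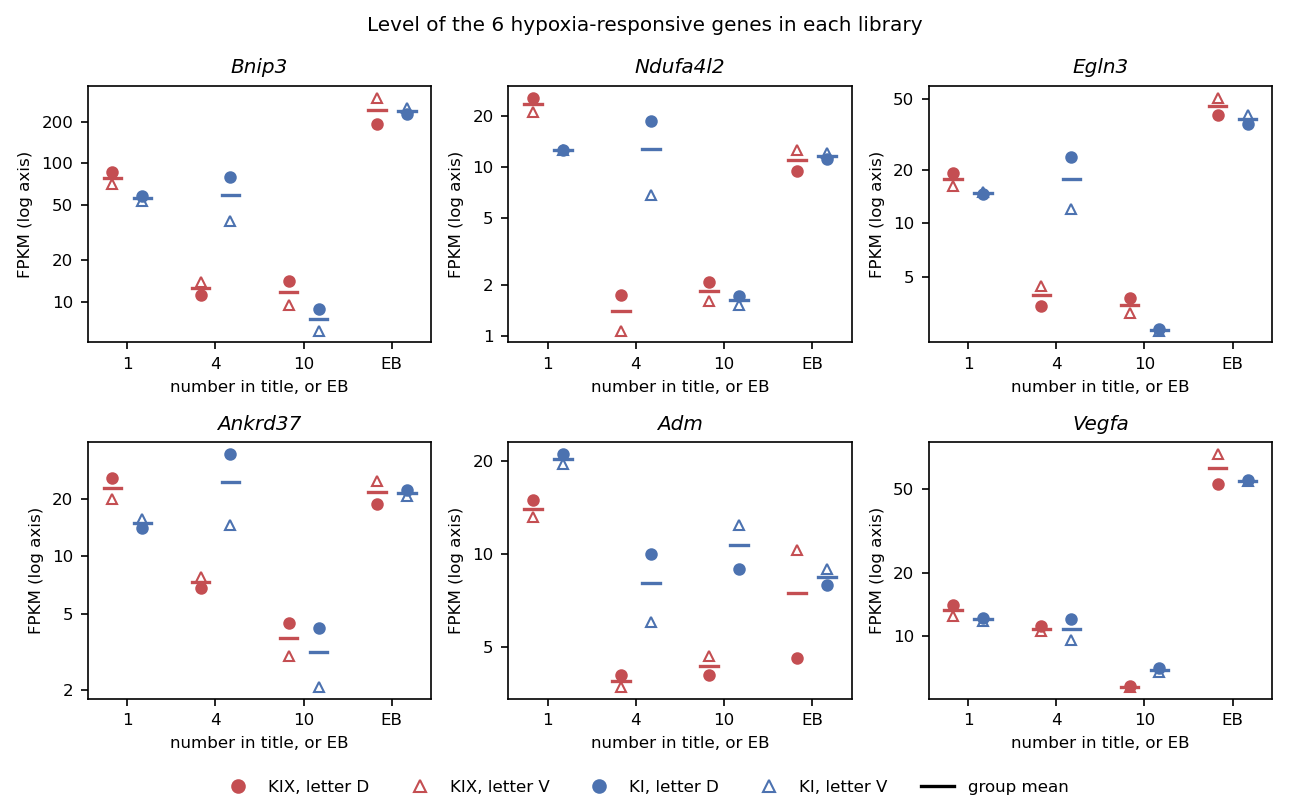
FPKM of each gene (log axis) in all 16 libraries, by number or EB, with KIX left of KI, filled circles for D, open triangles for V and bars for group means. Bnip3, Ndufa4l2, Egln3 and Ankrd37 were low in KIX at number 4 and in both prefixes at number 10, and Bnip3, Egln3 and Vegfa were highest in EBs.

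Between numbers 10 and 1, the contrast known when the genes were chosen, all 6 were lower at number 10 with no overlap of the 4 libraries on each side, where 20.5% of tested genes were lower without overlap. Nothing is read from this count, since the choice drew on it. Mean levels were 9.64 ± 3.26 FPKM at number 10 and 67.1 ± 14.7 FPKM at number 1 for Bnip3, and 1.73 ± 0.241 and 18.1 ± 6.59 FPKM in the same order of groups for Ndufa4l2 (SD, n = 4 each). The differences in log2(FPKM + 1), number 10 minus 1, were -2.74 for Ndufa4l2, -2.70 for Bnip3, -2.16 for Ankrd37, -2.12 for Egln3, -1.19 for Adm and -0.90 for Vegfa. The pseudocount of 1 makes these differences smaller for low genes.

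The path between these numbers differed by prefix. In KIX the log2 difference of number 4 minus 1 was -3.36 for Ndufa4l2, -2.55 for Bnip3, -1.92 for Egln3 and -1.51 for Ankrd37, and that of number 10 minus 4 was 0.25, -0.11, -0.14 and -0.83 for the same genes. In KI the difference of number 4 minus 1 was -0.13 for Ndufa4l2, -0.014 for Bnip3, 0.18 for Egln3 and 0.56 for Ankrd37, and that of number 10 minus 4 was -2.25, -2.74, -2.34 and -2.55. The 2 KI libraries of number 4 differed in this. From the D library alone the KI difference of number 4 minus 1 was 0.54 for Ndufa4l2, 0.51 for Bnip3, 0.64 for Egln3 and 1.16 for Ankrd37, and from the V library alone it was -0.80, -0.54, -0.29 and -0.028 for the same genes. The KI difference of number 10 minus 4 was -2.92, -3.27, -2.81 and -3.14 from the D library and -1.58, -2.21, -1.88 and -1.96 from the V library. With either library, most of the difference in these 4 genes lay between numbers 1 and 4 in KIX and between numbers 4 and 10 in KI. Vegfa moved little from 1 to 4 in either prefix (-0.27 in KIX and -0.14 in KI), while Adm had its larger step there in both (-1.62 in KIX and -1.27 in KI). Over both prefixes, 1 of the 6 genes, Adm, was lower without overlap at number 4 than at number 1, beside 15.6% of tested genes, and 2, Ankrd37 and Vegfa, were lower without overlap at number 10 than at number 4, beside 10.0%. Feeder-type markers differed as well, with sums of 1143 to 1325 FPKM at number 4 and 1696 to 2531 FPKM at number 1. A score of these markers, held constant in the iPSC libraries, moved the log2 differences of Bnip3, Ndufa4l2, Egln3 and Ankrd37 in both steps. With the score, number 4 minus 1 was -1.75, -2.28, -1.25 and -1.30 for these genes in this order. Without it the differences were -1.28, -1.74, -0.87 and -0.47. Number 10 minus 4 was -1.005, -0.53, -0.91 and -0.95 with the score, against -1.42, -1.001, -1.24 and -1.69 without. The part of the feeders in these differences was not tested further.

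At number 4, KIX libraries had lower Bnip3, Ndufa4l2, Egln3 and Ankrd37 transcripts than KI libraries. The difference was tested with limma on log2(FPKM + 1) over all 16 libraries, with adjustment by Benjamini-Hochberg over 13895 genes and a threshold of 0.05. Levels were 12.6 ± 1.93 FPKM in KIX and 58.9 ± 29.6 FPKM in KI for Bnip3, which is 0.214 of the KI level (SD, n = 2 each). They were 1.40 ± 0.475 FPKM in KIX and 12.8 ± 8.46 FPKM in KI for Ndufa4l2, or 0.11 of the KI level. The KI libraries stood apart from each other, D being 2.10 times the V library for Bnip3, 2.76 times for Ndufa4l2, 1.98 times for Egln3 and 2.36 times for Ankrd37. By limma, the log2 difference of KIX minus KI was -2.05 (SE 0.322, adjusted p = 0.00187) for Bnip3 and -2.38 (SE 0.327, adjusted p = 0.000809) for Ndufa4l2. It was -1.86 (SE 0.238, adjusted p = 0.000558) for Egln3 and -1.50 (SE 0.345, adjusted p = 0.0133) for Ankrd37 by the same test.

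Adm did not pass this limma test at number 4 (-0.85, adjusted p = 0.0610), with 3.89 ± 0.237 FPKM in KIX and 8.06 ± 2.83 FPKM in KI. Vegfa was at 10.8 FPKM in both groups, a log2 difference of 0.010 with a 95% interval of -0.28 to 0.31. In all, 4 of the 6 genes were called lower in KIX, beside 8.29% of all tested genes called lower and 19.6% called in either direction. Fibroblast marker sums were 1205 to 1224 FPKM in KIX and 1143 to 1325 FPKM in KI, and 0 of the 10 markers were called. Of 5 tested endothelium markers 3 were called higher in KIX, beside 11.3% of all tested genes. Among these 5, Kdr and Tie1 reached 1 FPKM only in KIX libraries, so this count is not independent of the filter. Tie1 was at 3.04 FPKM in KIX and 0.208 FPKM in KI at number 4. Sums over the 6 endothelium markers listed were 25.5 to 26.3 FPKM in KIX and 15.99 to 18.6 FPKM in KI. Pecam1 made up most of these endothelium sums, at 20.7 FPKM in KIX and 15.6 FPKM in KI. The same sum was 13.2 to 27.1 FPKM over all iPSCs and 16.6 to 26.3 FPKM in EBs, so it does not separate iPSCs from EBs. The part of these markers in the result was not tested. Without the D library of KI, limma gave -1.53 for Bnip3 (adjusted p = 0.0118), -1.72 for Ndufa4l2 (adjusted p = 0.000966) and -1.39 for Egln3 (adjusted p = 0.00115), but Ankrd37 was no longer called (-0.90, adjusted p = 0.0917). Ankrd37 was likewise not called without the D (adjusted p = 0.0826) or the V library (adjusted p = 0.0522) of KIX at number 4, and Adm was called without the V library of KI at number 4 (-1.18, adjusted p = 0.0259) and without either KIX library of EBs (adjusted p = 0.0146 and 0.0147). A lone library was taken to vary like the other groups in these fits.

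At number 1 the signs were the other way for those 4 genes, but limma called 0 of the 6, beside 2.20% of tested genes. At an unadjusted p under 0.05 it listed 2358 of 13895 genes. Bnip3 was at 78.4 ± 11.2 FPKM in KIX and 55.8 ± 3.22 FPKM in KI, and Ndufa4l2 at 23.6 ± 3.15 and 12.6 ± 0.0251 FPKM in KIX and KI (SD, n = 2 each). The log2 difference of KIX minus KI was 0.85 for Ndufa4l2, with a 95% interval of 0.13 to 1.57 before any adjustment (adjusted p = 0.218 by limma). It was 0.48 for Bnip3 (95% interval -0.23 to 1.19), 0.58 for Ankrd37 (-0.19 to 1.34) and 0.24 for Egln3 (-0.29 to 0.76). Ndufa4l2 was called when either KI library of number 4 was left out of the fit (adjusted p = 0.0248 without D and 0.0245 without V).

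At number 10 the 2 prefixes were both low in the mitochondrial genes and Egln3, and Adm alone of the 6 was called. Adm was at 4.37 ± 0.435 FPKM in KIX and 10.7 ± 2.48 FPKM in KI, a log2 difference of -1.11 (SE 0.288, adjusted p = 0.0198 by limma). This is 1 of 6 genes lower, beside 14.6% of tested genes called lower and 24.6% in either direction. Bnip3, at 11.8 ± 3.18 FPKM in KIX and 7.52 ± 1.93 FPKM in KI, gave 0.58 with a 95% interval of -0.13 to 1.29, and Ndufa4l2 gave 0.11 (-0.61 to 0.83). The Adm call was lost without the D (adjusted p = 0.118) or the V library of KIX (adjusted p = 0.0611), without the V library of KI (adjusted p = 0.128), and with the fibroblast score held constant, where the difference was -1.09 with an SE of 0.345 (adjusted p = 0.178). Fibroblast marker sums at number 10 were 1469 to 1574 FPKM in KIX and 2205 to 2566 FPKM in KI.

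**Figure D3:**
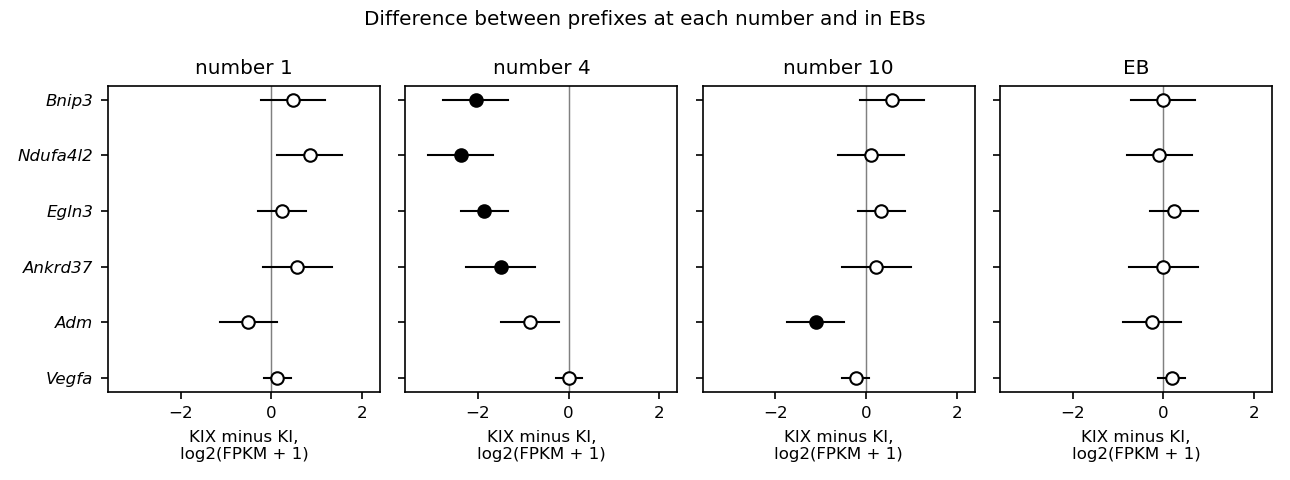
Difference in log2(FPKM + 1), KIX minus KI, for each gene at numbers 1, 4 and 10 and in EBs, with 95% intervals from the limma fit and filled points for an adjusted p under 0.05. Filled points lie left of 0 for Bnip3, Ndufa4l2, Egln3 and Ankrd37 at number 4 and for Adm at number 10.

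The change of the KIX minus KI difference between numbers was tested itself. From number 1 to 4 it was -3.23 for Ndufa4l2 (SE 0.462, adjusted p = 0.00611 by limma), -2.53 for Bnip3 (adjusted p = 0.0164), -2.10 for Egln3 (adjusted p = 0.0105) and -2.07 for Ankrd37 (adjusted p = 0.0407). That is 4 of 6 genes lower, beside 2.19% of tested genes called lower and 4.71% in either direction, and Adm (-0.35) and Vegfa (-0.12) were not called. The number of all genes called for this change, 655, ranged from 99 without the D library of KIX at number 4 to 2382 without the V library of KI at number 4. From number 4 to 10 it was 2.63 for Bnip3 (adjusted p = 0.00317 by limma), 2.50 for Ndufa4l2 (adjusted p = 0.00439), 2.20 for Egln3 (adjusted p = 0.00193) and 1.72 for Ankrd37 (adjusted p = 0.0250). Again 4 of 6 were called, all higher, beside 11.4% called higher and 28.5% in either direction, while Adm (-0.26) and Vegfa (-0.24) were not called. Both changes use the libraries of number 4, so their values are not independent of each other or of the difference at number 4.

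The change from number 1 to 4 lost calls without more of the single libraries than that from number 4 to 10. Without the D library of KIX at number 1 or at number 4, Ndufa4l2 was the only one of the 4 still called by limma. Bnip3 and Ankrd37 were lost without the V library of KIX or the D library of KI at number 1. Ankrd37 alone was lost without the V library of KI at number 1, the V library of KIX or the D library of KI at number 4, either KIX library of number 10, or either KI library of EBs. From number 4 to 10, Ankrd37 alone was lost, without the D library of KIX or of KI at number 4, the D library of KIX at number 10, or the V library of KI at number 10.

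EBs had higher Bnip3, Egln3 and Vegfa transcripts than every iPSC library. Bnip3 was at 241.9 ± 45.0 FPKM in EBs (n = 4) and 37.5 ± 30.7 FPKM in iPSCs (n = 12), 6.45 times as high. Vegfa was at 59.2 ± 9.82 FPKM in EBs and 9.92 ± 2.89 FPKM in iPSCs, 5.97 times as high, and Egln3 at 41.9 ± 6.20 and 10.04 ± 7.56 FPKM in EBs and iPSCs, 4.17 times as high. Those 3 of 6 genes without overlap stand beside 31.0% of all tested genes. By limma, with group means weighted equally, the log2 difference of EB minus iPSC was 3.17 for Bnip3 (SE 0.186, adjusted p = 1.47e-08), 2.50 for Vegfa (SE 0.0772, adjusted p = 7.10e-11) and 2.31 for Egln3 (SE 0.138, adjusted p = 1.69e-08).

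Ankrd37 was at 21.6 ± 2.48 FPKM in EBs and 12.7 ± 10.01 FPKM in iPSCs, with an EB minus iPSC difference of 1.10 (adjusted p = 0.000290 by limma), and Ndufa4l2 at 11.4 ± 1.39 and 8.97 ± 8.98 FPKM in EBs and iPSCs, with 0.93 (adjusted p = 0.000666). Their EB libraries overlapped with iPSC libraries, and for Ndufa4l2 the mean of number 1 was higher than that of EBs (18.1 and 11.4 FPKM). Adm was at 7.98 ± 2.44 FPKM in EBs and 10.2 ± 6.12 FPKM in iPSCs and was not called (-0.17, adjusted p = 0.362), although it was called lower without the V library of KIX EBs (-0.42, adjusted p = 0.0136). In all, 5 of 6 genes were called higher, beside 44.4% of tested genes called higher and 86.6% in either direction. The iPSC side holds the libraries of numbers 10 and 1, whose difference was known when the genes were chosen. This count is therefore not independent of the choice. The ratio of the EB mean to that of number 1 alone was 4.69 for Vegfa, 3.60 for Bnip3 and 2.58 for Egln3. It was 1.15 for Ankrd37, 0.629 for Ndufa4l2 and 0.463 for Adm. The Ndufa4l2 call was lost when KI and KIX were taken as the replicates of a letter and number (adjusted p = 0.0862 by limma). It was also lost with D and V averaged (adjusted p = 0.201 by limma). Marker genes of other cell types moved with the same contrast. Of 7 endoderm markers 7 were higher in EBs, with sums of 1854 to 3386 FPKM in EBs and 1.50 to 16.2 FPKM in iPSCs, and of 6 cardiac muscle markers 6 were, with 95.2 to 694.7 and 4.79 to 17.5 FPKM in EBs and iPSCs. Afp and Ttr of endoderm and Myh6 and Tnnt2 of cardiac muscle reached 1 FPKM only in EBs, so the endoderm and cardiac counts are not independent of the filter. All 10 fibroblast markers were lower in EBs. The part of cell composition in the 6 genes was not tested.

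Within EBs, limma called none of the 6 genes between KIX and KI, beside 27.3% of tested genes called, and listed 5447 genes at an unadjusted p under 0.05. Vegfa was at 63.5 ± 14.8 FPKM in KIX and 55.01 ± 0.318 FPKM in KI (0.18, 95% interval -0.11 to 0.48), and it was called without the D library of KIX EBs (0.42, adjusted p = 0.0224). Bnip3 was at 244.6 ± 76.1 and 239.1 ± 16.5 FPKM in KIX and KI (-0.0011, 95% interval -0.71 to 0.71). The change of the KIX minus KI difference from iPSCs to EBs was called for 0 of the 6 genes (lowest adjusted p = 0.0880, Egln3), beside 33.0% of tested genes. Leaving out a library added calls there: Egln3 without the D library of KI at number 4 (adjusted p = 0.0338), Egln3 and Ndufa4l2 without its V library (adjusted p = 0.00438 and 0.0309), and Adm and Vegfa without the D library of KIX EBs (adjusted p = 0.0139 and 0.0233). D and V libraries, compared across all groups, gave 0 calls among the 6 genes and 0.00% of the 13895 tested by limma, with 764 genes at an unadjusted p under 0.05.

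Over the 12 iPSC libraries, the log2 levels of Bnip3, Ndufa4l2, Egln3 and Ankrd37 correlated pairwise with r of 0.903 to 0.991. Vegfa had r of 0.498 to 0.869 with the other 5 genes, and Adm had 0.459 to 0.717. The libraries share prefixes, numbers and letters, so these values describe the table and carry no p. The libraries also include those whose difference was known when the genes were chosen. Neither these correlations nor the closest profiles given next are therefore independent of that choice. Across 8081 candidate genes, the closest profile to Bnip3 was that of Tpi1, a glycolytic enzyme (r = 0.994), followed by Slc2a1, a glucose transporter (0.990), and Pgk1, a glycolytic kinase (0.983). Tpi1 was also the closest to Egln3 (0.988), and Pgm2, phosphoglucomutase, to Ndufa4l2 (0.992). Ankrd37 was closest to Ddit4, a hypoxia and stress response gene (0.977). Adm was closest to Rab25, a small GTPase of epithelial cells (0.956), and Vegfa to Hprt, a purine salvage enzyme (0.980), so neither had a glycolytic gene first. Of 15 glycolysis genes tested, 11 were called lower and 1 higher in KIX than in KI at number 4, beside 8.29% and 11.3% of all tested genes.

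The genes that sense oxygen and build HIF were mixed in direction. Of 16 in this list, 4 were called higher and 6 lower at number 10 than at number 1 by limma (median log2 difference 0.082, against -0.0095 over all tested genes, of which 51.9% were called). Egln1, the main HIF hydroxylase, was at 6.37 ± 0.266 FPKM at number 10 and 14.4 ± 3.30 FPKM at number 1 (-1.04, adjusted p = 1.45e-05). Epas1, the HIF-2 alpha subunit, was called higher with KIX and KI pooled (0.29, adjusted p = 0.0259 by limma). Its pooled means were 11.4 ± 2.35 and 9.15 ± 1.70 FPKM at numbers 10 and 1. Only KIX held this rise, with 13.4 FPKM at number 10 and 7.71 FPKM at number 1. KI libraries were lower at number 10 without overlap, at 9.30 to 9.64 FPKM against 10.3 to 10.9 FPKM at number 1. At number 4, 2 of the 16 were lower and 3 higher in KIX than in KI, beside 8.29% and 11.3% of all tested genes. Egln1 was at 8.995 ± 0.696 FPKM in KIX and 14.4 ± 2.46 FPKM in KI (-0.61, adjusted p = 0.0136), while Hif1a, the HIF-1 alpha subunit, was at 52.3 ± 0.871 and 43.7 ± 4.11 FPKM in KIX and KI (0.26, adjusted p = 0.0162). Vhl, which recognises hydroxylated HIF, was higher too (0.38, adjusted p = 0.00446). In EBs Epas1 was at 63.8 ± 22.8 FPKM and in iPSCs at 8.90 ± 2.75 FPKM (2.69, adjusted p = 4.14e-11), and Egln1 rose alongside (2.43, adjusted p = 1.48e-10).

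Other genes known to respond to low oxygen were in part lower in the same comparisons. Of 37 listed, 34 passed the filter. At number 10 against number 1, 18 were called lower and 4 higher by limma, 52.9% lower and 11.8% higher, beside 27.0% and 25.0% of all tested genes, and their median log2 difference was -0.34. Stc2, a secreted glycoprotein, was at 3.25 ± 0.475 FPKM at number 10 and 14.9 ± 1.12 FPKM at number 1 (-1.91, adjusted p = 1.47e-07). Ddit4, an inhibitor of mTOR signalling, was at 23.7 ± 3.05 and 84.2 ± 4.21 FPKM at numbers 10 and 1 (-1.79, adjusted p = 9.04e-06). At number 4 against 1 and at number 10 against 4, 18 of the 34 were called in either direction, beside 38.6% and 40.9% of tested genes. Nos2, the inducible nitric oxide synthase, went the other way, at 3.57 ± 0.852 FPKM at number 10 and 0.144 ± 0.0287 FPKM at number 1 (1.98, adjusted p = 3.50e-07).

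At number 4, 6 of these 34 genes were lower and 2 higher in KIX than in KI (17.6% and 5.88%, beside 8.29% and 11.3% of all tested genes). Ndrg1, a stress response gene, was at 8.44 ± 0.322 FPKM in KIX and 22.6 ± 7.63 FPKM in KI (-1.28, adjusted p = 0.00410 by limma), and Fam162a, a mitochondrial HIF target, at 57.4 ± 0.459 and 122.0 ± 42.9 FPKM in KIX and KI (-1.03, adjusted p = 0.00319). Ddit4 was lower as well (-1.01, adjusted p = 0.0122). The D library of KI at number 4 was again the higher of its group, with 138.6 FPKM of Ddit4 against 73.8 in V. In EBs against iPSCs, 26 of the 34 were higher and 6 lower (76.5% and 17.6%, beside 44.4% and 42.2% of all tested genes). Plod2, a collagen lysyl hydroxylase, was at 201.8 ± 64.0 FPKM in EBs and 13.6 ± 4.24 FPKM in iPSCs (3.81, adjusted p = 6.00e-12), while the matrix cross-linker Lox was at 1.57 ± 1.77 FPKM in EBs and 84.3 ± 40.3 FPKM in iPSCs (-5.13, adjusted p = 2.99e-10).

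Receptors of the secreted factors did not share one direction. Of 9 tested, 4 were called higher and 5 lower at number 10 than at number 1 by limma, beside 25.0% and 27.0% of all tested genes. Flt1, a VEGF receptor, was at 3.40 ± 0.746 FPKM at number 10 and 6.35 ± 1.79 FPKM at number 1 (-0.72, adjusted p = 0.00571), and Calcrl, the adrenomedullin receptor, at 1.71 ± 0.338 and 0.807 ± 0.0632 FPKM at numbers 10 and 1 (0.58, adjusted p = 3.56e-05). In EBs Flt1 was at 91.1 ± 11.6 FPKM and in iPSCs at 4.63 ± 1.70 FPKM (4.07, adjusted p = 2.17e-10), the same direction as Vegfa. Kdr, the main signalling receptor of Vegfa, was at 3.04 ± 0.636 FPKM in KIX EBs and 0.819 ± 0.0574 FPKM in KI EBs (a log2 difference of 1.14), where Vegfa itself was not called. Kdr reached 1 FPKM only in the 2 KIX EB libraries and passed the filter through them, so no p-value is given for it. Marker genes of several cell types moved with KIX and KI in EBs: 4 of 5 tested endothelium, 6 of 6 cardiac muscle and 7 of 10 fibroblast markers were called higher in KIX and 8 of 8 pluripotent cell markers lower. Kdr and Tie1, among the 5 endothelium markers, reached 1 FPKM only in KIX libraries, so the endothelium count is not independent of the filter. Of all tested genes, 27.3% were called in this comparison, and 45.3% of those called were higher in KIX. Endothelium sums were 23.6 to 26.3 FPKM in KIX EBs and 16.6 to 18.9 FPKM in KI EBs, and fibroblast sums were 159.7 to 488.8 and 24.1 to 47.02 FPKM in KIX and KI EBs. Pecam1, the largest part of the endothelium sums, went the other way in its means, 11.9 FPKM in KIX EBs and 13.3 FPKM in KI EBs. The part of these marker genes in the Kdr difference was not tested.

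**Figure D4:**
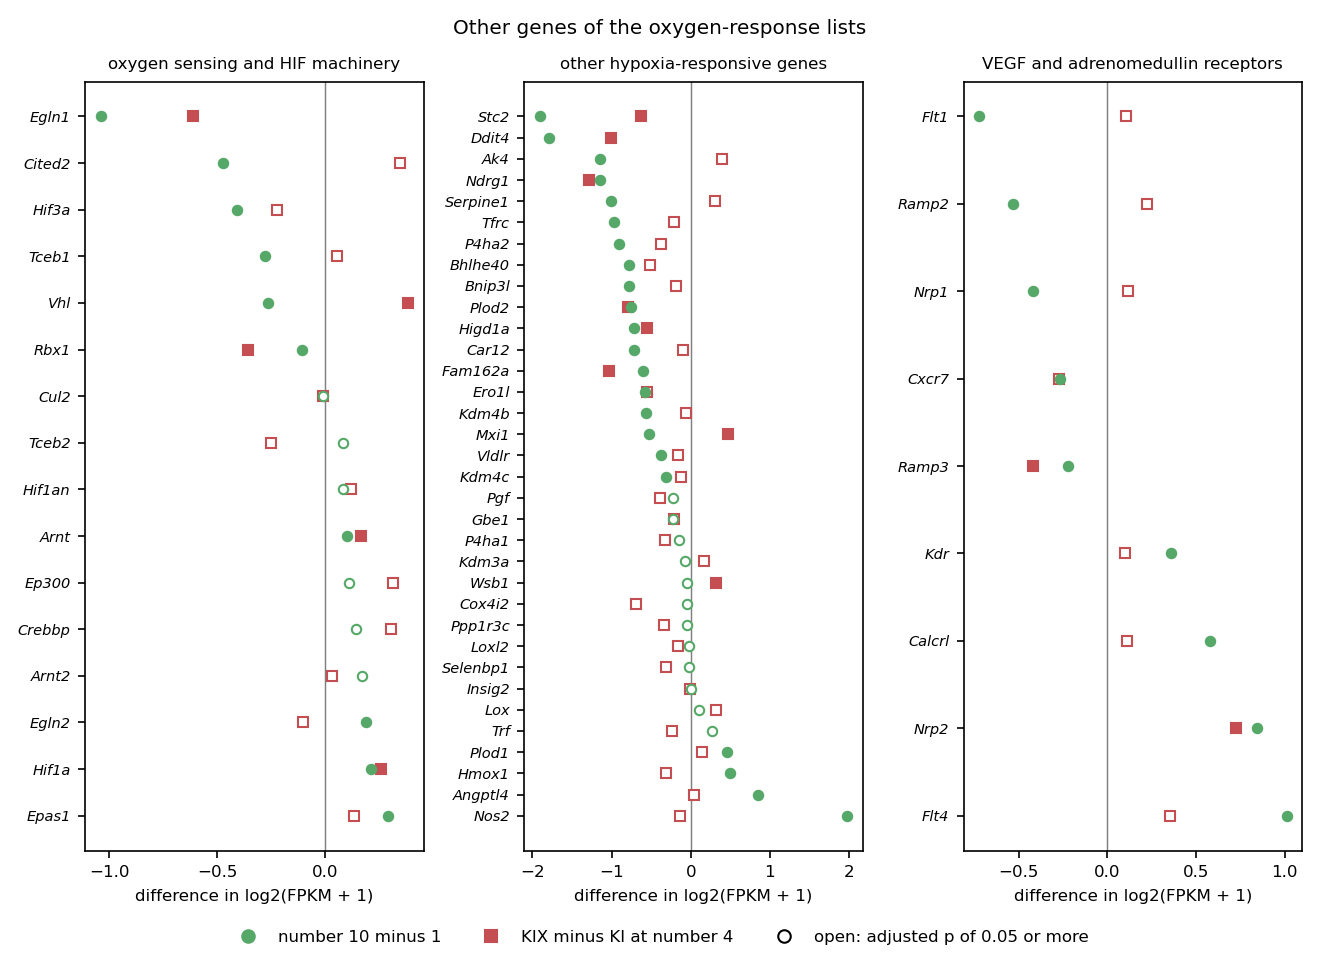
Differences in log2(FPKM + 1) for the tested genes of 3 lists, number 10 minus 1 as green circles and KIX minus KI at number 4 as red squares, filled where the limma adjusted p was under 0.05. Egln1, Stc2 and Ddit4 lie left of 0 in both comparisons, and Nos2 lies furthest right for number 10 minus 1.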

How the data were processed

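PolyA RNA was made into strand-marked (dUTP) libraries, per the labels' protocols. The submitters' processing notes name FastQC, TopHat2 2.0.10, Bowtie 1.0.0, SAMtools 0.1.19, Cufflinks 2.2.1 and the build GRCm38; no settings are given in the sources used here. The table that the authors deposited holds FPKM, scaled to library size and transcript length, for 23284 genes in 16 libraries. Depth is therefore unknown, an exact 0 can be a failed estimate, and no count model was used.

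Groups came from the titles. limma 3.58.1 in R 4.3.3 was fitted to log2(FPKM + 1) (8 group means, D and V as replicates, 1 shared spread with 8 residual degrees of freedom, empirical Bayes with a trend, two-sided) over the 13895 genes that reached 1 FPKM in 2 or more libraries. Adjustment was by Benjamini-Hochberg at 0.05. The fit was also run on simulated data, with independent noise in every library and changes added only in KIX at number 4. Such a run cannot show whether D and V are separate replicates. The members and the 11 other lists were chosen with earlier results of these data known, so tests of them are not independent support. Named genes of a list are up to 4 called genes with the largest change. Genes with the profile most like a member were ranked by Pearson's r over the 12 iPSC libraries among 8081 genes whose mean reached 5 FPKM. Alternatives were a pseudocount of 0.1, no filter, quantile normalization, a replicate block, other replicate definitions, a fibroblast covariate and leaving out each library.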

Additional observations from a re-analysis of the deposited data

Results flagged for a closer look

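The change of the KIX minus KI difference between numbers passed limma's test of the difference itself for 4 of the 6 genes in both steps, on the log2(FPKM + 1) scale. From number 1 to 4 it was -2.53 for Bnip3, -3.23 for Ndufa4l2, -2.10 for Egln3 and -2.07 for Ankrd37. From number 4 to 10 it was 2.63 for Bnip3, 2.50 for Ndufa4l2, 2.20 for Egln3 and 1.72 for Ankrd37. Without the D library of KI at number 4, which was 2.10 times its V library for Bnip3, the values from number 1 to 4 were -2.01 for Bnip3, -2.56 for Ndufa4l2, -1.63 for Egln3 and -1.48 for Ankrd37, the last no longer called (adjusted p = 0.0920). Those from number 4 to 10 were 2.11, 1.83, 1.74 and 1.13 for the same genes, and again Ankrd37 was not called (adjusted p = 0.0648).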

How the results depend on the processing

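In tested comparisons, 1058 of 1104 values of the 6 genes under other settings stayed on the same side of the threshold. The sign turned in 26, in 0 of which either value was called. Of 414 values of the number comparisons, which had no test, 10 moved by more than 1 SD and 0 changed sign. Of the other listed hypoxia genes, limma called 22 for number 10 minus 1, 18 for 10 minus 4 and 18 for 4 minus 1. With KI and KIX as the replicates of a letter and number the last 2 counts became 10 and 5. With D and V averaged, the 3 counts became 5, 1 and 0. With the fibroblast score held constant in iPSCs the last 2 became 8 and 2, and the members called between KIX and KI at number 10 became 0, against 1 (Adm, -1.09 with the score and -1.11 without). Counts of all genes called moved alike, from 7213 for number 10 minus 1 to 3524 with KI and KIX as replicates and 307 with D and V averaged. The corresponding counts for 10 minus 4 were 5677, 1547 and 151, and for 4 minus 1 they were 5370, 1185 and 13. With the score, 1317 genes were called for 10 minus 4, 372 for 4 minus 1, 137 (against 306) for KIX minus KI at number 1 and 2 (against 3414) at number 10. The causes were not tested. Quantile normalization moved the higher share of called genes from 53.2% to 41.5% for 10 minus 4 and from 39.97% to 51.5% for the change from 4 to 10. The change of Ankrd37 from number 1 to 4 was lost with a pseudocount of 0.1 (adjusted p = 0.0519) and with no filter (adjusted p = 0.0630), and Adm at number 4 was called after quantile normalization (-0.93, adjusted p = 0.0484) and with the fibroblast score (-0.85, adjusted p = 0.0322).

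Leaving out 1 library at a time, the members called ranged from 3 to 5 for KIX minus KI at number 4, from 0 to 1 at numbers 1 and 10 and in EBs, from 1 to 4 for the change from 1 to 4, from 3 to 4 for that from 4 to 10, from 0 to 2 for that from iPSCs to EBs, from 5 to 6 for EB minus iPSC and from 0 to 0 for D minus V. All genes called ranged from 1097 to 3650 for KIX minus KI at number 4 and from 2053 to 4625 for the change from 4 to 10, both lowest without the D library of KIX and highest without the V library of KI at number 4. Other hypoxia genes ranged from 22 to 23 for 10 minus 1, 14 to 23 for 10 minus 4 and 12 to 22 for 4 minus 1. The replicate block by letter left 4 members called for KIX minus KI at number 4 and changed no call of the 6 genes. The D minus V deviations of 28 pairs of groups correlated with r of -0.19 to 0.21, over 0.1 in 3, so the letters were not taken as pairing the libraries. Depth is unknown, so precision rests on 2 libraries a group.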

Other observations

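Autophagy genes linked to BNIP3 differed between the prefixes at number 10, where Bnip3 was not called. Of 14 tested, 8 were lower and 0 higher in KIX than in KI by limma (57.1%, beside 14.6% of all tested genes called lower). Fibroblast markers moved with the same groups, with sums of 1469 to 1574 FPKM in KIX and 2205 to 2566 FPKM in KI. Their median log2 difference was -0.63, and 1 of the 10 was called. With the fibroblast score held constant, limma called 0 of the 14 genes (lowest adjusted p = 0.101) and 2 of all tested genes. Sqstm1, the autophagy receptor p62, was at 121.4 ± 1.45 FPKM in KIX and 160.2 ± 6.54 FPKM in KI (-0.40, adjusted p = 0.00216; SD, n = 2 each), and with the score its difference was -0.47 (adjusted p = 0.101). Bnip3l, the closest relative of Bnip3 and also a mitophagy receptor, was lower at number 10 than at number 1 (24.0 ± 0.528 and 42.02 ± 3.38 FPKM, -0.78, adjusted p = 9.75e-06) and higher in EBs than in iPSCs (80.1 ± 9.70 and 32.6 ± 8.04 FPKM, 1.30, adjusted p = 1.40e-09), the directions of Bnip3.

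Relatives of Vegfa and Adm went both ways. Figf, the ligand VEGF-D, was at 19.8 ± 5.76 FPKM at number 10 and 6.62 ± 0.842 FPKM at number 1 (1.42, adjusted p = 5.84e-07 by limma), opposite to Vegfa. Adm2, a related peptide, was at 1.31 ± 0.0944 and 4.14 ± 1.16 FPKM at numbers 10 and 1 (-1.13, adjusted p = 1.18e-05). In EBs Vegfb was at 90.6 ± 6.39 FPKM and in iPSCs at 22.3 ± 3.24 FPKM (1.99, adjusted p = 5.98e-11), while Figf was at 0.401 ± 0.144 FPKM in EBs and 12.7 ± 6.49 FPKM in iPSCs (-3.16, adjusted p = 3.68e-12).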
